A study of Mus musculus with 25 samples.

Results

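Most of the genes described here encode secreted developmental signals, with 3 of their antagonists and 3 FGFs that stay inside the cell (Fgf11, Fgf12 and Fgf14). They comprise 20 fibroblast growth factors (FGFs), 9 bone morphogenetic proteins (BMPs), 9 growth and differentiation factors (GDFs, with myostatin), Nodal, the BMP antagonists Nog, Chrd and Grem1, and the hedgehog ligands Shh, Ihh and Dhh. The 45 genes were chosen by name, with earlier results of these data known. A peak belonged to a gene when the deposited annotation assigned it to that gene. Of the 45 genes, 30 were assigned at least 1 H3K27me3 peak in the 12 H3K27me3 peak lists, with 196 peaks of 34244 in all, and 15 were assigned none. In the whole data set, 6092 genes had an H3K27me3 peak.

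Histone H3 trimethylated at lysine 27 (H3K27me3) was mapped by chromatin immunoprecipitation sequencing in regenerating mouse myofibers of 4 genotypes, with 3 libraries per genotype, and H3K9me3 was mapped in 12 further libraries. All mice, the wild-type mice included, carried the Pax7-Cre(ERT2) driver, which acts on floxed alleles of muscle stem cells after tamoxifen, and a mito-Dendra2 allele that makes the recombined cells and the fibers they form fluorescent. In mfn2-/- mice the driver removed mitofusin 2, a mitochondrial fusion protein; in vhl-/- mice it removed VHL, which targets HIF1α for degradation; in HIF1dPA mice it switched on a HIF1α that VHL cannot recognize. Adult animals received tamoxifen at 75 mg/kg on 5 days, the tibialis anterior muscle was injured 2 days after the last dose with 50 µL of 1.2% BaCl2, and Dendra2-positive myofibers were dissected at 14 days post injury. The myofibers were dissected as tissue, and whether each library came from 1 animal or several, the sex and the age in weeks are not given in the sources used here. The p-values below therefore measure the spread between libraries.

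The wild-type, mfn2-/- and vhl-/- lists held 3358 to 4035 H3K27me3 peaks, and the HIF1dPA lists held 482 to 501. In the mfn2-/- lists 1016 to 1105 peaks lay on chromosome X, or up to 30.3% of a list, against 5 to 13 peaks in each of the other 9 lists, and the autosomes held 2342 to 2574 mfn2-/- peaks against 3427 to 3763 wild-type peaks. All 45 signal genes are autosomal, and the X-linked family members Fgf13, Fgf16 and Bmp15 were not among them. None of the 9 myofiber markers examined (Acta1, Ckm, Ttn and others) had an H3K27me3 peak in any list. Of the 14 markers of other cells of muscle that are reported, 4 had a peak: Pdgfra, a receptor of fibro-adipogenic progenitors, in 9 lists, Pax7 of muscle stem cells in 5, and Myf5 and Ptprc in 1 list each. The lists give no read counts, so the sequencing depth behind a peak is unknown.

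FGFs bind receptor tyrosine kinases, BMPs and GDFs bind paired serine/threonine kinase receptors that act through SMAD proteins, and hedgehog proteins act by relieving the block that Patched places on Smoothened. These ligands pattern the limb, the skeleton and the muscle of the embryo, and many are silent in most differentiated tissue. H3K27me3 is placed by the Polycomb repressive complex PRC2, and it is known for covering CpG-rich promoters of developmental regulators that a cell does not transcribe. In adult muscle, myostatin restrains growth, Fgf6 is made by muscle itself, and Fgf2 and BMP signals act on muscle stem cells.

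The RefSeq promoter table (GRCm38, the mm10 build) held 31 of the 45 genes. Of the 11 signal genes with a peak in 6 or more lists it held 6, and Fgf20, Gdf6, Fgf8, Fgf17 and Bmp7 are without a sequence here. The promoters of those 6 were rich in CpG dinucleotides relative to their base composition. The sequences below are the 250 bases upstream of the annotated start, 5′ to 3′ on the gene's strand, with each CG in capitals. The first 5 genes had a peak of the promoter class, near any annotated start of the gene, in 7 or 8 of the 12 lists. Fgf6, which had no peak in any list, is shown for contrast and was picked after its values were seen.
Gdf7, chr12:8301955-8302204, minus strand: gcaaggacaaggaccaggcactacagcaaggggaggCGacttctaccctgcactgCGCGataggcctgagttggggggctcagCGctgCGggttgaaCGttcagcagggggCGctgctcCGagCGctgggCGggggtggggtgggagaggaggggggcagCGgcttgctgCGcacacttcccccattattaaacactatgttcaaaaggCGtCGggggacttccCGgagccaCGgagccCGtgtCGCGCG
Ihh, chr1:74951673-74951922, minus strand: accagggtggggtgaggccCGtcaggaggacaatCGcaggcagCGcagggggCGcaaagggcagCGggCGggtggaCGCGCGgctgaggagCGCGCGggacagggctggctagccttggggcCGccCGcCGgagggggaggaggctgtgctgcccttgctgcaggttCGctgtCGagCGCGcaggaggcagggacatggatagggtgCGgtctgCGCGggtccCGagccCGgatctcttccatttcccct
Fgf4, chr7:144861136-144861385, plus strand: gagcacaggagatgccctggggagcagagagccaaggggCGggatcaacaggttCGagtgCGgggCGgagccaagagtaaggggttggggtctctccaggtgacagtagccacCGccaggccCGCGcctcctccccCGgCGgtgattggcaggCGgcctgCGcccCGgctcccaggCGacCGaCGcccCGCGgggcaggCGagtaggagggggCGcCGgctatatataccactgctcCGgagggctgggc
Fgf5, chr5:98253934-98254183, plus strand: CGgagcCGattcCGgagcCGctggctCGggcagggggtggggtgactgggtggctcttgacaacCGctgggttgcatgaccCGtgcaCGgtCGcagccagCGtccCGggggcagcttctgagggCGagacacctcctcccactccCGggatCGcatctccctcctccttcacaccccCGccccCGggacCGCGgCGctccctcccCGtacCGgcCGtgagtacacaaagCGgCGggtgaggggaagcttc
Fgf9, chr14:58072436-58072685, plus strand: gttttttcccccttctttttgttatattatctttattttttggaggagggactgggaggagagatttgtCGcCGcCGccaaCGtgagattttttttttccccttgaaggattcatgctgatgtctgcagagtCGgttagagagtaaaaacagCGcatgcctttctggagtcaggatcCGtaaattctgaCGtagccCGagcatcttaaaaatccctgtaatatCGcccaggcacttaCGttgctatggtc
Fgf6, chr6:127015292-127015541, plus strand: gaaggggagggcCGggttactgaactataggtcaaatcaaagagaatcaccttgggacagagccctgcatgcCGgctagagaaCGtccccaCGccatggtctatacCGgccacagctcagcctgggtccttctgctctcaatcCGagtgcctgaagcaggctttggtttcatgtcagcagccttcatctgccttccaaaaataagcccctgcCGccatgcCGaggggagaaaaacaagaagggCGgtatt

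The Ihh and Fgf5 sequences held 24 CG each, Fgf4 held 21, Gdf7 held 20 and Fgf9 held 11, against 9 in Fgf6. Set against base composition, the ratio of observed to expected CpG (the CG count times the length, divided by the product of the C and G counts) was 0.761 for Gdf7, 0.783 for Ihh, 0.675 for Fgf4, 0.767 for Fgf5, 0.879 for Fgf9 and 0.473 for Fgf6. The 6 signal genes in the table that had a peak in 6 or more lists, these 5 and Fgf12, had a median ratio of 0.775, and all 6 exceeded 0.6. Among the signal genes in the promoter table, the 14 with a peak in 1 to 5 lists had a median of 0.442. The 11 in that table without a peak had a median of 0.473. Over the whole data set, the table held 681 genes with a peak in 6 or more lists. Their median was 0.658, and that of all 27025 promoters was 0.378. Dense CpG was also found without the mark: the Fgf2 promoter had a ratio of 0.858 and the Chrd promoter 0.790, and neither gene had a peak. The first start of Fgf12 in the table lies far from the peaks of that gene, so its ratio describes a promoter that no peak reached. The hypoxia-response core ACGTG, searched on both strands, was found in 5 of the 31 promoters (16.1%) and in 16.6% of all promoters. The E-box CANNTG, which reads the same on both strands and can overlap the ACGTG core, was found in 17 of 31 (54.8%) against 66.0% of all promoters.

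**Figure D1:**
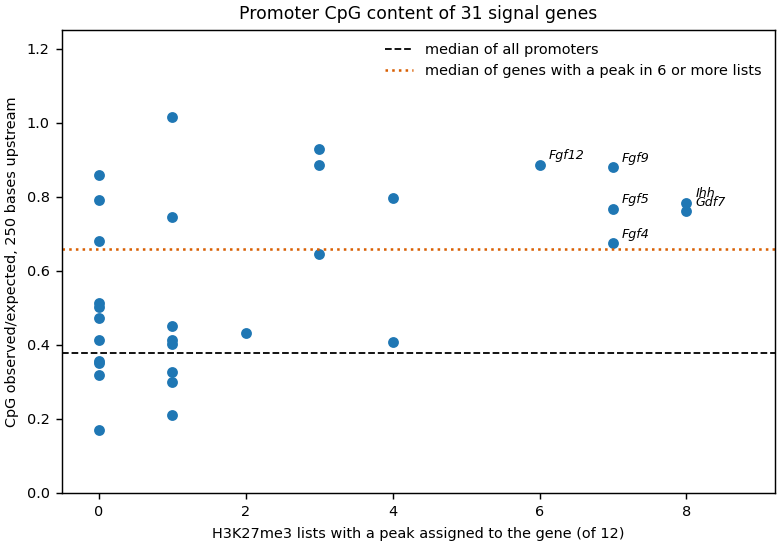
CpG observed/expected ratio of the 250 bases upstream of the start (y axis) against the number of H3K27me3 lists with a peak assigned to the gene (x axis, of 12) for the 31 signal genes with a promoter sequence. The dashed line is the median of all promoters (0.378). The dotted line is that of genes with a promoter sequence and a peak in 6 or more lists (0.658). The 6 named genes all lie above the dotted line, and genes with 0 or 1 list range from 0.170 to 1.02.

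The mark did not always cover these 250 bases. No list held a peak over the printed Ihh or Fgf5 sequence, 1 list held one over Gdf7, and 3 lists each held one over Fgf4 and Fgf9. At Ihh, overlapping peaks of 7 lists merged into chr1:74947869-74951415, inside the gene, and peaks of 4 lists merged into chr1:74952153-74956214, upstream of it, so that the sequence lay in the gap between them. At Fgf5, peaks of 7 lists merged into chr5:98254500-98256235, downstream of the start.

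The signal genes carried the mark in a larger share than protein-coding genes at large in 3 of the 4 genotypes. Wild-type lists had a peak at 17, 12 and 10 of the 45 genes (28.9% ± 8.01, SD, n = 3), mfn2-/- lists at 12, 12 and 12 (26.7%), and vhl-/- lists at 13, 18 and 14 (33.3% ± 5.88). The HIF1dPA lists had a peak at 1, 0 and 0 of them (0.741% ± 1.28). Of 20661 autosomal protein-coding genes, wild-type lists had a peak at 7.08% ± 0.359 and mfn2-/- lists at 4.79% ± 0.265. For vhl-/- lists the share was 7.32% ± 0.364 and for HIF1dPA lists 1.49% ± 0.0533. The share of signal genes was above that of protein-coding genes in each of the 9 wild-type, mfn2-/- and vhl-/- libraries, and above it in 1 of the 3 HIF1dPA libraries. The wild-type counts overlapped those of mfn2-/- and of vhl-/-, while each vhl-/- count lay above the 12 genes of every mfn2-/- library.

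**Figure D2:**
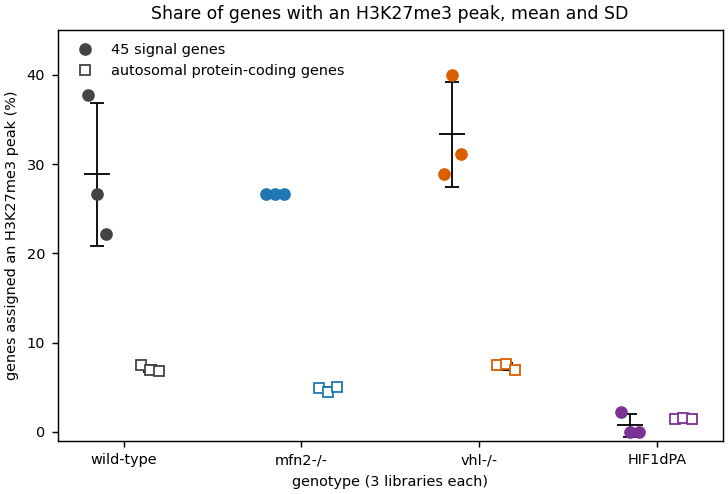
Percent of genes assigned an H3K27me3 peak (y axis) in each library of the 4 genotypes (x axis), for the 45 signal genes (filled circles) and for autosomal protein-coding genes (open squares); black marks show mean and SD of 3 libraries. The signal genes lie between 22.2% and 40.0% in the wild-type, mfn2-/- and vhl-/- libraries and at 2.22% or 0 in the HIF1dPA libraries.

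Peaks at the signal genes had a median size and strength near those of other H3K27me3 peaks, were less often very wide or very strong, and lay at promoters more often; these shares were not tested. Their median width was 770.5 bp (480 to 2610), against 735 bp for all peaks, and 3 of 196 (1.53%) exceeded 2000 bp, against 3.58% of all peaks. Their median score (the log10 of a peak's p-value multiplied by −10, so that stronger peaks score higher) was 63.1 against 62.1 for all peaks, with a floor of 50 in the lists. A score under 60, close to the floor, was found for 82 of the 196 (41.8%), against 45.1% of all peaks, and a score of at least 100 for 26 (13.3%), against 16.7%. The annotation put 139 of the 196 (70.9%) within 3 kb of a transcription start, 77 of them within 1 kb, with 27 in introns, 12 in exons, 17 in intergenic sequence and 1 in a 3′ UTR. Per library the promoter share was 66.0% ± 17.5 for wild-type, 82.5% ± 6.49 for mfn2-/- and 69.6% ± 7.53 for vhl-/- lists (SD, n = 3), and the single HIF1dPA peak was at a promoter. The wild-type range overlapped those of both knockouts, and each mfn2-/- share (78.6% to 90%) lay above each vhl-/- share (61.3% to 76%). Over all peaks, the share was 49.4%, 41.4%, 51.6% and 38.9% in the same order of genotypes. The mfn2-/- share over all peaks includes the chromosome X peaks, up to 30.3% of a list, whereas the signal genes are all autosomal. A promoter share over autosomal peaks alone was not computed.

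The same stretches did not recur in all libraries. Overlapping peaks of the signal genes merged into 74 regions, of which 47 (63.5%) were found in 1 list only, against 73.4% of the 15965 regions of the whole data set. In 6 or more lists, 9 regions were found, 2 each at Fgf20 and Gdf6 and 1 each at Fgf4, Fgf5, Fgf8, Fgf9 and Ihh. The most frequent, in 8 lists, was chr19:45739581-45742879 at Fgf8.

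The total length covered by peaks at the 45 genes was 18123 bp ± 7394 per wild-type library, 15499 bp ± 2978 per mfn2-/- library, 23860 bp ± 3486 per vhl-/- library and 185 bp ± 320 per HIF1dPA library (SD, n = 3). Wild-type libraries ranged from 11722 to 26217 bp, which covered the range of the mfn2-/- libraries and overlapped that of the vhl-/- libraries. The HIF1dPA libraries lay below all others.

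**Figure D3:**
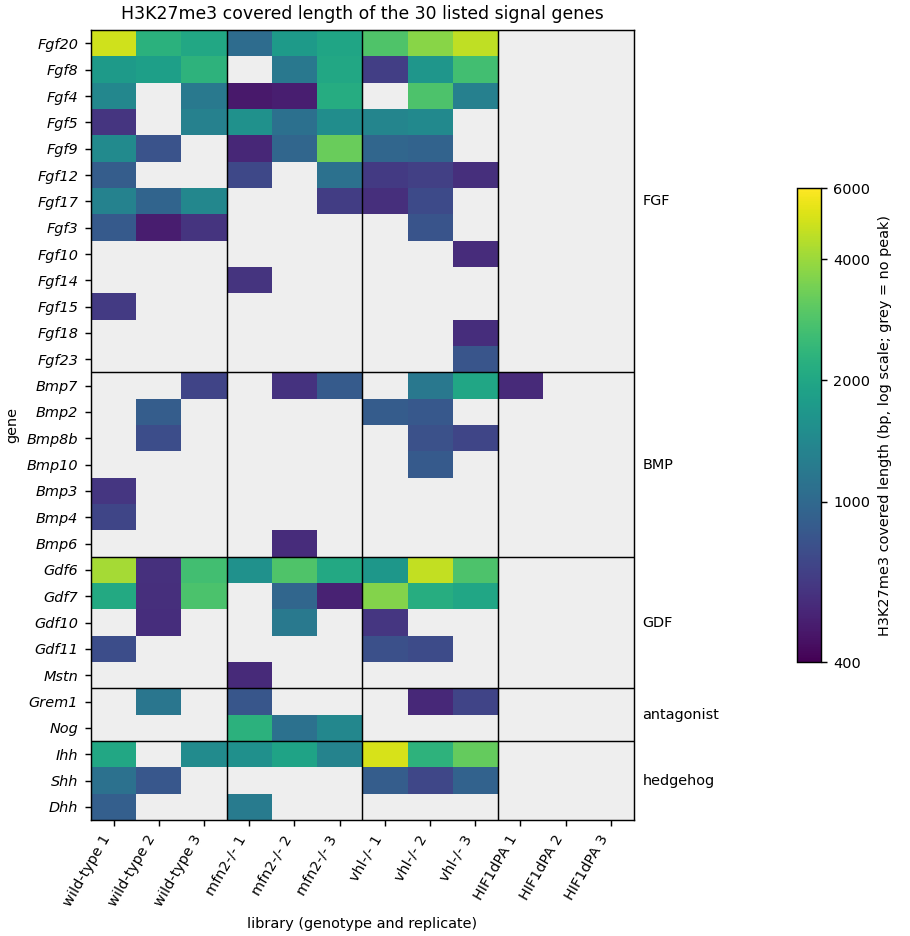
H3K27me3 covered length in bp (colour, log scale; grey where no peak was assigned) of the 30 signal genes with a peak (rows, by family) in the 12 libraries (columns). Fgf20 and Gdf6 are filled in all 9 wild-type, mfn2-/- and vhl-/- columns, Nog only in the 3 mfn2-/- columns, and the HIF1dPA columns hold 1 filled cell, Bmp7.

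The covered length of each gene, the sum of the widths of its peaks in a library, was compared across the 4 genotypes with an exact permutation test over the 12 libraries, adjusted by the Benjamini-Hochberg method over all 2394 genes with a peak in 3 or more lists. No signal gene had an adjusted p under 0.05, of 19 tested, and 44 of 2394 genes did (1.84%). At an unadjusted exact p under 0.05, 6 of the 19 passed (Ihh, Fgf20, Fgf17, Gdf7, Nog and Shh), close to the 33.2% of all genes tested. Nog had peaks in the 3 mfn2-/- lists alone, a pattern that fixes the p at 0.0182 whatever the lengths. The background also holds chromosome X genes with this pattern. On the autosomes alone, 594 of 2184 genes passed, 6 of them signal genes. Each mutant was also compared with wild-type by whether the 3 mutant values all lay above or all below the 3 wild-type values. The smallest exact two-sided p that 3 against 3 libraries can give is 0.1, and all mutants were compared with the same 3 wild-type libraries, so non-overlap is a description.

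Against wild-type, mfn2-/- libraries did not overlap for 4 of 13 signal genes compared: Nog was higher, and Fgf20, Fgf17 and Fgf3 were lower. Genes were compared when they had a peak in at least 3 of the 6 lists, so a gene listed in the 3 libraries of 1 group and in none of the other could only come out without overlap. That was so for Nog and Fgf3, which leaves Fgf20 and Fgf17 of the 11 signal genes with a peak in both genotypes, where 2.21% of 1267 genes were higher and 11.8% lower. Of all 1561 genes compared, 14.7% were higher and 15.5% lower without overlap; among the 1355 autosomal genes these shares were 2.29% and 17.9%. The mfn2-/- lists also held fewer autosomal peaks, and the part of this in the lower values was not tested. Pdgfra, a marker of fibro-adipogenic progenitors, was lower as well. It measured 5010, 3509 and 1886 bp in the wild-type libraries and 0, 547 and 1077 bp in the mfn2-/- libraries. It overlapped wild-type in vhl-/- libraries and was lower in HIF1dPA libraries (516, 0 and 0 bp). Dcn and Col1a1, the other markers of these cells examined, had no peak in any list. The part of such cells in these results was not tested. In vhl-/- libraries Ihh was higher and Fgf17 was lower, of 17 signal genes compared, where 8.34% and 3.25% of all 1786 genes were higher and lower. In HIF1dPA libraries 6 of 6 signal genes compared were lower (Fgf20, Gdf6, Gdf7, Fgf8, Fgf17 and Fgf3) and none was higher, where 74.9% of all 925 genes compared were lower and 0.324% higher. All 6 had peaks in the 3 wild-type lists and in no HIF1dPA list, so they entered the comparison through wild-type alone and their direction was fixed by the filter, as it was for 389 of the 693 lower genes. The HIF1dPA lists held fewer peaks throughout, and their part in these values was not tested.

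**Figure D4:**
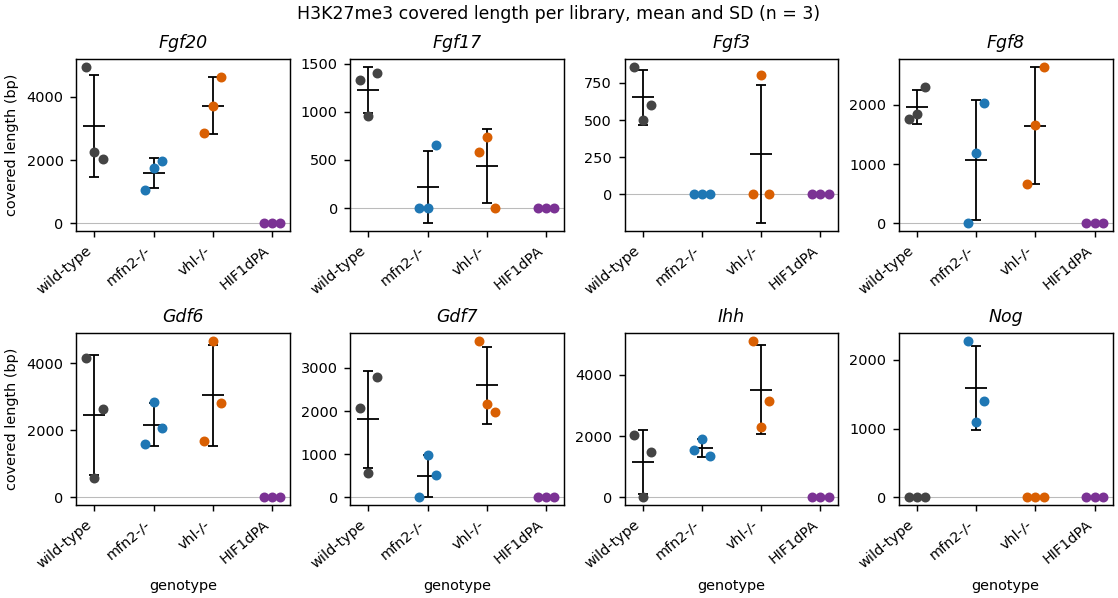
H3K27me3 covered length in bp (y axis of each panel) per library at the 8 signal genes for which at least 1 mutant did not overlap wild-type, by genotype (x axis); points are libraries, black marks mean and SD (n = 3). Nog has values above 0 in the mfn2-/- libraries alone (1101 to 2278 bp), the lowest vhl-/- value of Ihh (2311 bp) lies above the highest wild-type value (2026 bp), and every HIF1dPA value shown is 0.

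Of the 20 FGFs, 13 had a peak, with 95 peaks in all. Fgf20, of the FGF9 subfamily that signals in the inner ear and kidney, was listed in all 9 wild-type, mfn2-/- and vhl-/- libraries. Its covered length was 4938, 2266 and 2024 bp in the wild-type libraries, 1043, 1755 and 1956 bp in the mfn2-/- libraries and 2849, 3692 and 4618 bp in the vhl-/- libraries, and 0 in HIF1dPA libraries. All mfn2-/- values lay below all wild-type values, by a gap of 68 bp between the nearest libraries, and the vhl-/- values overlapped wild-type. Over the 4 genotypes the exact permutation p was 0.00669 (adjusted p = 0.0734), and 0.1 without the HIF1dPA libraries. Without wild-type replicate 1 the adjusted p was 0.0372, and with promoter peaks alone it was 0.0497. Counting the longest peak of each library in place of the sum, or promoter peaks alone, the mfn2-/- values overlapped wild-type, and by the longest peak the vhl-/- values lay above wild-type without overlap. The gene, chr8:40279166-40286953, had 24 peaks, 18 of them at its promoter, and the score reached 226.23 in vhl-/- replicate 3, where it was number 102 of 3636 peaks.

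Fgf9, a mesenchymal and testis signal of the same subfamily, had 10 peaks in 7 lists, all of the class within 1 kb of an annotated start. Measured from the start that the printed sequence ends at, 5 of the 10, in 5 lists, lay within 1 kb, and the other 5 lay 1041 to 4372 bp away. Covered lengths were 1462, 798 and 0 bp in the wild-type libraries, 540, 983 and 3232 bp in the mfn2-/- libraries and 979, 948 and 0 bp in the vhl-/- libraries. The 3 genotypes overlapped, and mfn2-/- replicate 3 stood highest.

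In the FGF8 subfamily, which patterns the limb bud and the midbrain, Fgf8 measured 1755, 1847 and 2300 bp in the wild-type libraries, 0, 1189 and 2027 bp in the mfn2-/- libraries and 660, 1658 and 2640 bp in the vhl-/- libraries. The ranges of both knockouts overlapped wild-type (exact permutation p across 4 genotypes = 0.0548, adjusted p = 0.157). Fgf17, its close relative, measured 1326, 954 and 1400 bp in wild-type libraries. It measured 0, 0 and 652 bp in mfn2-/- and 578, 736 and 0 bp in vhl-/- libraries, so that each mutant lay below wild-type without overlap (p = 0.0143, adjusted p = 0.0734, and 0.0571 unadjusted without the HIF1dPA libraries; exact permutation test). Its peaks were all at the promoter and scored at most 92.07. Fgf18, a cartilage and bone signal, had 1 peak, of 568 bp in vhl-/- replicate 3.

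In the FGF4 subfamily, Fgf4, of the early embryo and limb ridge, measured 1396, 0 and 1201 bp in the wild-type libraries, 482, 503 and 2143 bp in the mfn2-/- libraries and 0, 2809 and 1295 bp in the vhl-/- libraries. Fgf5, a regulator of the hair cycle, measured 605, 0 and 1314 bp in the wild-type libraries, 1573, 1091 and 1506 bp in the mfn2-/- libraries and 1374, 1442 and 0 bp in the vhl-/- libraries. Both genes were listed in all 3 mfn2-/- libraries and in 2 libraries of wild-type and of vhl-/-, with overlapping lengths. Fgf6, the member of this subfamily made by muscle, had no peak in any list.

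Fgf3, of the FGF7 subfamily and active in the ear and tail bud, measured 858, 499 and 601 bp in wild-type libraries, 0 in all mfn2-/- libraries and 0, 805 and 0 bp in vhl-/- libraries (exact permutation p = 0.0545, adjusted p = 0.157). Its 4 peaks scored 56.96 at most. Fgf3, Fgf4 and Fgf15 are neighbours within 62342 bp on chromosome 7, and this stretch held 16 of their 17 peaks, so their values are not independent. Of the rest of the FGF7 subfamily, Fgf10, a limb and lung signal, had 1 peak in vhl-/- replicate 3, and Fgf7 and Fgf22 had none.

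Fgf12, an intracellular FGF that binds sodium channels, had a peak in 6 lists. It measured 888, 0 and 0 bp in the wild-type libraries, 722, 0 and 1096 bp in the mfn2-/- libraries and 631, 666 and 574 bp in the vhl-/- libraries, with overlap. Fgf14, of the same kind, had 1 intron peak in mfn2-/- replicate 1 with a score of 50.05, and Fgf11 had none. Of the hormone-like FGFs, Fgf15 had 1 promoter peak in wild-type replicate 1 and Fgf23 1 peak in vhl-/- replicate 3, in the 3′ UTR, while Fgf21 had none. Fgf1 and Fgf2, which are present in many adult tissues, had none either.

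Of the 9 BMPs, 7 had a peak, with 18 peaks in all. Bmp7, a kidney and skeletal signal, measured 0, 0 and 695 bp in the wild-type libraries, 0, 592 and 868 bp in the mfn2-/- libraries and 0, 1186 and 1986 bp in the vhl-/- libraries. It was also the single signal gene with a HIF1dPA peak, of 555 bp in replicate 1 with a score of 58.19, within the range of the other genotypes (exact permutation p = 0.287). Its strongest region, chr2:172937424-172939274, was found in 3 lists.

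Bmp2, a bone-forming ligand, and Bmp8b, known from germ cells and brown fat, were each listed in wild-type replicate 2 and in 2 vhl-/- libraries. Bmp2 had 887 bp in the wild-type library and 881 and 839 bp in vhl-/- replicates 1 and 2. Bmp8b had 759 bp in the wild-type library and 784 and 708 bp in vhl-/- replicates 2 and 3. A further 4 BMPs had 1 peak each, with scores from 50.04 to 66.84: Bmp3 and Bmp4 in wild-type replicate 1, Bmp6 in mfn2-/- replicate 2 and Bmp10, the cardiac BMP, in vhl-/- replicate 2. Bmp5 and Bmp8a had none.

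Of the 9 GDF genes, 5 had a peak, and 42 of the family's 49 peaks lay at Gdf6 and Gdf7, which are known from joints, tendon and the dorsal spinal cord. Gdf6 measured 4161, 581 and 2641 bp in the wild-type libraries, 1580, 2853 and 2059 bp in the mfn2-/- libraries and 1686, 4670 and 2805 bp in the vhl-/- libraries. It was listed in all 9 of these libraries, with full overlap among the 3 genotypes (exact permutation p across 4 genotypes = 0.084, and 0.732 without HIF1dPA). Its peaks spread along the gene, chr4:9844372-9862345, with 9 at the promoter, 10 in the intron and 4 in exons.

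Gdf7 measured 2081, 574 and 2780 bp in the wild-type libraries, 0, 980 and 516 bp in the mfn2-/- libraries and 3628, 2171 and 1982 bp in the vhl-/- libraries. The mfn2-/- values overlapped only wild-type replicate 2, and no mfn2-/- value reached a vhl-/- value (exact permutation p = 0.0151, adjusted p = 0.0734, and 0.1 without the HIF1dPA libraries). With promoter peaks alone the adjusted p was 0.0472, and the mfn2-/- values lay below and the vhl-/- values above wild-type without overlap. It had the highest score of any signal gene, 245.26 in vhl-/- replicate 1, number 100 of 3884 peaks. Gdf5, the third gene of this branch, had no peak.

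Gdf11, which patterns the trunk axis, had promoter peaks of 761 bp in wild-type replicate 1 and of 775 and 740 bp in vhl-/- replicates 1 and 2. Gdf10 had 571, 1192 and 617 bp in 1 wild-type, 1 mfn2-/- and 1 vhl-/- library. Myostatin (Mstn), the close relative of Gdf11 that limits muscle mass, had 1 intergenic peak of 551 bp in mfn2-/- replicate 1, with a score of 51.14. Gdf2, Gdf3, Gdf9 and Nodal had none.

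**Figure D5:**
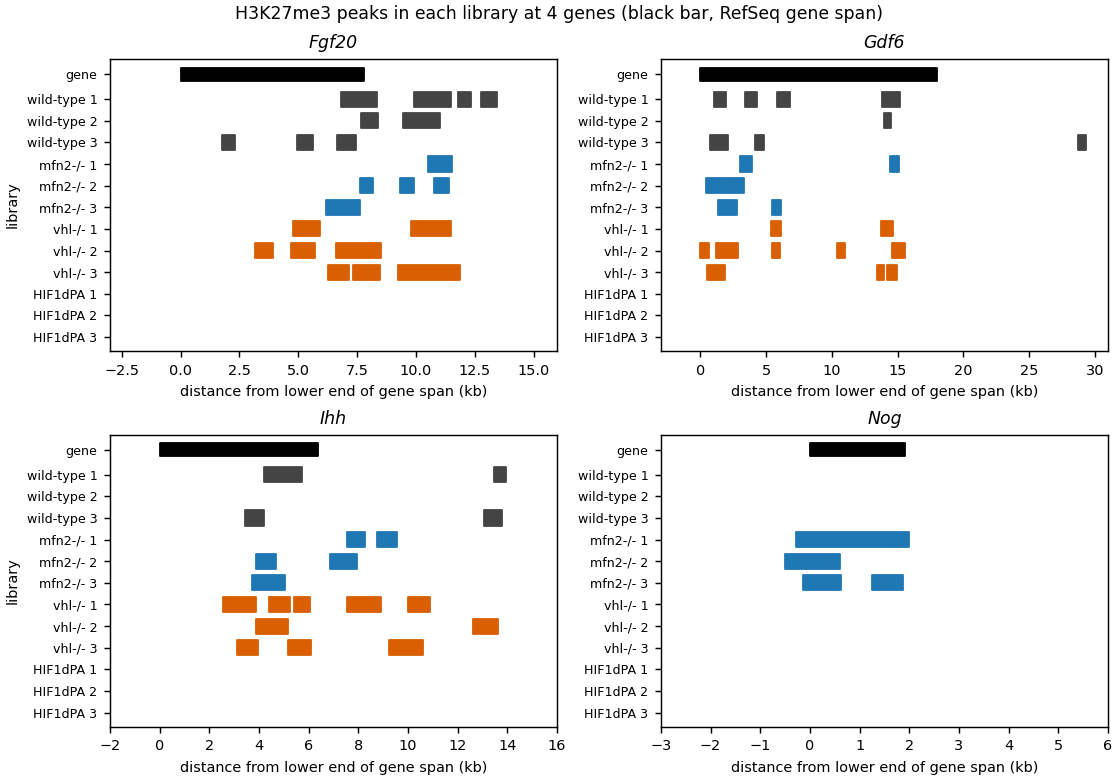
Position of each H3K27me3 peak (coloured bars) in the 12 libraries (rows) at Fgf20, Gdf6, Ihh and Nog, as distance in kb from the lower end of the RefSeq gene span (black bar); 2 distant Fgf20 peaks lie outside the frame. Nog has peaks in the 3 mfn2-/- rows alone, all touching the gene, whereas peaks at the other genes recur across wild-type, mfn2-/- and vhl-/- rows at shifting positions, and HIF1dPA rows are empty.

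Nog encodes noggin, which binds BMPs and GDFs and keeps them from their receptors. It had no peak in any wild-type, vhl-/- or HIF1dPA library, and measured 2278, 1101 and 1396 bp in the mfn2-/- libraries. The peaks merged into chr11:89300137-89302633, which covers the whole gene span, chr11:89300638-89302559, and all 4 were of the promoter class. Their scores were 164.34 in replicate 1 and 158.43 in replicate 2, numbers 127 of 3518 and 122 of 3358 in their lists, and 69.88 and 75.89 in replicate 3, so that a minimum score of 100 left Nog peaks in 2 libraries. A gene with peaks in the 3 libraries of 1 genotype and in no other list cannot have an exact permutation p under 0.0182 across the 4 genotypes, which is the value of Nog (adjusted p = 0.0734). In all, 190 genes had this pattern in mfn2-/-, of which 187 are on chromosome X and Nog is 1 of 3 on autosomes. The matching pattern was found for 10 genes of wild-type libraries, 17 genes of vhl-/- libraries and 1 gene of HIF1dPA libraries, none of them a signal gene.

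The other antagonists had no such pattern. Grem1, or gremlin, had 1156 bp in wild-type replicate 2, 824 bp in mfn2-/- replicate 1, and 547 and 698 bp in vhl-/- replicates 2 and 3. Chrd, or chordin, had no peak.

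All 3 hedgehog ligands had a peak. Ihh, which directs cartilage growth, measured 2026, 0 and 1475 bp in the wild-type libraries, 1556, 1922 and 1336 bp in the mfn2-/- libraries and 5115, 2311 and 3148 bp in the vhl-/- libraries, and 0 in HIF1dPA libraries. Each vhl-/- value lay above each wild-type and mfn2-/- value, and the mfn2-/- values overlapped wild-type. The mean difference between vhl-/- and wild-type was 2358 bp, and 1562.5 bp without vhl-/- replicate 1 (1562.5 to 2964.5 bp leaving out each library in turn). Across the 4 genotypes Ihh had the lowest p of the signal genes (exact permutation p = 0.00234, adjusted p = 0.0579, and 0.0321 unadjusted without the HIF1dPA libraries). Its adjusted p was 0.0439 without wild-type replicate 2 and 0.0465 without vhl-/- replicate 3. The gap between the nearest vhl-/- and wild-type libraries was 285 bp. By the longest peak of each library, vhl-/- and wild-type overlapped, with a mean difference of 581 bp, and they also overlapped with promoter peaks alone.

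Shh, the ligand of the limb's polarizing region and the floor plate, measured 1102, 830 and 0 bp in wild-type, 0 in all mfn2-/- and 892, 710 and 939 bp in vhl-/- libraries. Its exact permutation p across the 4 genotypes was 0.0364 (adjusted p = 0.120), and 0.114 unadjusted without the HIF1dPA libraries. Shh peaks were found in 0 of 3 mfn2-/- libraries and in 2 of 3 wild-type libraries, so the ranges met at 0. All 5 peaks fell in chr5:28456442-28457906, over the lower end of the gene span, chr5:28456840-28467101. The annotation classed them as within 1 kb of a start but did not name the start. Whether they lay at the main promoter of Shh is therefore not shown. Dhh, made by Schwann and Sertoli cells, had 909 bp in wild-type replicate 1 and 1233 bp in mfn2-/- replicate 1.

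The near absence of these genes from the HIF1dPA lists was set beside the length of those lists. Taking the 482 strongest peaks of each library, the length of the shortest list, 1.33 ± 1.53 signal genes per library had a peak in wild-type (SD, n = 3). In mfn2-/- libraries 2.33 ± 0.577 signal genes had a peak, in vhl-/- libraries 2.00 ± 1.00, and HIF1dPA libraries had 0.333 ± 0.577. At equal list length the HIF1dPA counts overlapped those of wild-type and met the lowest vhl-/- count, while each mfn2-/- count lay above each HIF1dPA count.

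Of 70 further genes of these pathways (receptors, other ligands, other antagonists, transducers and targets), 32 had an H3K27me3 peak, 14 in 3 or more lists, and none of the 14 had an adjusted p under 0.05. Fgfr2, an FGF receptor, was covered most: 6291, 6992 and 6997 bp in the wild-type libraries, 4557, 5313 and 4969 bp in the mfn2-/- libraries and 6569, 9030 and 5258 bp in the vhl-/- libraries, and 584 bp in 1 HIF1dPA library. Its mfn2-/- values lay below wild-type without overlap. Across the 4 genotypes its exact permutation p was 0.00312 (adjusted p = 0.0632), and 0.171 unadjusted without the HIF1dPA libraries. Hhip, which binds and sequesters hedgehog ligands, was listed in 10 libraries, as was Fgfr2. The BMP target Id4 and the antagonist Sost were listed in 9, the BMP-binding protein Bmper in 7 and the activin subunit gene Inhbb in 5. Of the hedgehog receptors, Ptch1 was listed in 4 and Smo in 3. Fgf13 and the BMP antagonist Chrdl1, both on chromosome X, were listed in the 3 mfn2-/- libraries alone, like Nog, with 562 to 1165 bp and 2695 to 4171 bp.

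H3K9me3, the mark of constitutive heterochromatin, was assigned in any of its 12 lists to 3 of the 45 signal genes (6.67%), against 13.3% of 20661 autosomal protein-coding genes; the difference was not tested. Of 20998 H3K9me3 peaks, 5 were assigned to the signal genes, at Fgf14, Fgf10 and Fgf20, in 4 lists and with scores from 51.9 to 59.9. The Fgf20 and Fgf10 peaks were intergenic, and none of the 5 was at a promoter.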

How the data were processed

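H3K27me3 and H3K9me3 were each mapped in 12 libraries, 3 per genotype, from crosslinked myofibers sonicated to about 500 bp. The submitters' processing notes name the mm10 build, BWA 0.7.5, MACS and deepTools 3.5.0; MACS settings and the annotation tool are not given in the sources used here. The deposited lists give, for each peak of a library, its coordinates, a gene, a feature class and a score, which the authors' peak caller made as −10 times the log10 of the p-value. The lists held no score below 50, and no reads, inputs or replicate consensus were used here. A peak list can vary with library depth and with the balance of mark over background, so a missing peak does not show that the mark was absent.

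Peak width was end minus start plus 1. Per gene and library, the widths of assigned peaks were summed (Python 3.11.15, numpy 2.4.6, pandas 2.3.3). Genes with a peak in at least 3 lists were compared across genotypes by an exact two-sided permutation test over all 15400 arrangements of 12 libraries into 4 groups of 3 (smallest possible p 6.49e-05) with Benjamini-Hochberg adjustment over 2394 genes; non-overlap with wild-type was tallied for genes with a peak in at least 3 of 6 lists. The test was checked on simulated data in which every gene had a peak in every library. The real lists lack many of these peaks, so the check does not cover that case. Genes with a peak in 6 or more lists, or not overlapping wild-type, were given with all values, and the others by the libraries that held them. Gene spans and promoters were RefSeq's. The gene families, the 70 pathway genes, the 23 markers and these tests were chosen with earlier results of these data known; 1 further marker is not reported here. Alternatives were a score of at least 100, an equal number of peaks, promoter peaks alone, the longest peak, presence alone, all genes, a replicate block, and leaving out each library or the HIF1dPA libraries. Autosomes alone were added after the data were seen.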

Additional observations from a re-analysis of the deposited data

How the results depend on the processing

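No reads were at hand, so peak presence could not be set against depth, and with 3 libraries per genotype the smallest p for 2 genotypes is 0.1. Many peaks of the signal genes lay near the lists' lowest score, and genes listed in 1 library depend on that limit. Scores of at least 100 left 26 of the 196 peaks, so alternatives that keep strong peaks test few of these genes. Peaks went to genes as the deposited annotation had it, and neighbours such as Fgf3, Fgf4 and Fgf15 share a stretch.

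With a score of at least 100, the signal genes with a peak per library averaged 1.33 in wild-type libraries, 2.33 in mfn2-/- libraries, 4.00 in vhl-/- libraries and 0 in HIF1dPA libraries, with covered lengths of 2622, 3606, 7281 and 0 bp, and the promoter share was 100% in mfn2-/- and 91.7% in vhl-/- libraries; wild-type replicate 3 had no such peak, so wild-type gave no share. No signal gene then failed to overlap wild-type (0 higher and 0 lower in each mutant), while over all genes 17 were higher and 32 lower in mfn2-/-, 52 and 8 in vhl-/-, and 1 and 158 in HIF1dPA. With the 482 strongest peaks per library, the means were 1.33, 2.33 and 2.00 genes and 2101, 3606 and 4193 bp in wild-type, mfn2-/- and vhl-/-, and the promoter share was 100% in both knockouts. The signal genes that did not overlap numbered 0 for mfn2-/- and HIF1dPA and 0 lower for vhl-/-, where Fgf20 was higher and Ihh's difference reversed, to a mean of −506 bp with overlap; over all genes 23 were higher and 17 lower in mfn2-/-, 23 and 9 in vhl-/-, and 10 and 109 in HIF1dPA, and 1 gene had an adjusted p under 0.05.

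With promoter peaks alone, means were 10.7 genes in mfn2-/- and 17388 bp in vhl-/- libraries. The exact permutation test then called 19 of the 1453 genes tested, 2 of them signal genes (Fgf20 and Gdf7). At an unadjusted exact permutation p under 0.05, 404 genes passed, 6 of them signal genes. Without overlap, 52 genes were higher and 122 lower in mfn2-/-, 96 and 36 in vhl-/-, and 1 and 431 in HIF1dPA. Of the signal genes, 2 (Fgf17 and Gdf7) were lower in mfn2-/-. How many genes each of these comparisons held was not recorded for this setting, so they give no shares. Counting only peaks within 1 kb of a start, the promoter share was 46.0%, 44.9% and 30.9% in wild-type, mfn2-/- and vhl-/-. The exact permutation test called 0 genes with the longest peak, with presence alone, with all genes down to 1 list and without the HIF1dPA libraries, where 823, 463, 794 and 403 genes had an unadjusted p under 0.05. Presence alone gave 92 of 1561 genes lower in mfn2-/-. Of 1786 genes, 37 were higher and 26 lower in vhl-/-, and of 925 genes, 1 was higher and 389 lower in HIF1dPA. Of 13 signal genes compared, 1 was then lower in mfn2-/-, and of 17 compared, 0 were higher or lower in vhl-/-. On the autosomes alone 31 genes were higher in mfn2-/-.

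Leaving out 1 library at a time, the exact permutation test called between 0 genes (without mfn2-/- replicate 1 or any HIF1dPA replicate; 626 to 633 unadjusted without a HIF1dPA replicate, 554 without mfn2-/- replicate 1) and 104 genes (without vhl-/- replicate 3), and 0 to 1 signal genes: Fgf20 without wild-type replicate 1, and Ihh without wild-type replicate 2 or vhl-/- replicate 3. For mfn2-/- 230 to 351 genes were higher (1 to 2 of them signal genes), most without mfn2-/- replicate 2, and 242 to 504 lower (3 to 4), most without wild-type replicate 2. For vhl-/- 149 to 361 were higher (1 to 3), most without vhl-/- replicate 3, and 58 to 194 lower (1 to 2), most without wild-type replicate 2. Leaving out a library cannot make values overlap that did not overlap before. Fgf17 and Fgf20 in mfn2-/- and Ihh and Fgf17 in vhl-/- therefore had to stay without overlap in all 12. For HIF1dPA 3 to 10 were higher (0) and 693 to 1000 lower (6 to 9). Dropping a library leaves 2 against 3, in which fewer values must line up. The means per genotype ranged from 11 to 14.5 genes and 14077 to 21324 bp for wild-type, 12.0 genes and 13855 to 16756 bp for mfn2-/-, 13.5 to 16 genes and 22001 to 25458 bp for vhl-/-, and 0 to 0.5 genes and 0 to 277.5 bp for HIF1dPA.

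Libraries with the same replicate number did not deviate together (mean r = 0.00395 over 18 pairs of libraries, from −0.0408 to 0.0676, across 2394 genes, which are not independent replicates). Within the replicate block, which moves labels only among libraries of 1 number, the smallest p is 0.00174 and 0 genes had an adjusted p under 0.05 in the exact permutation test (455 unadjusted). By pairs of the same number, 266 of the 1561 genes compared were higher and 362 lower in mfn2-/-. Of the 13 signal genes compared, 2 were higher (Fgf5 and Nog) and 4 lower (Fgf3, Fgf8, Fgf17 and Fgf20). The filter again fixed the direction of Nog and Fgf3. In vhl-/-, 279 of the 1786 genes compared were higher and 105 lower. Of the 17 signal genes compared, 1 was higher (Ihh) and 1 lower (Fgf17).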
